A study of Mus musculus with 43 samples.

Results

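The transcripts described are 10 genes of the YAP-TEAD pathway: the targets Cyr61, Ctgf and Ankrd1, the angiomotin genes Amotl1 and Amotl2, the coactivator genes Yap1 and Wwtr1, the transcription factor genes Tead1 and Tead4, and the kinase gene Lats2. They were chosen on measured values of these libraries, because Cyr61 was among the genes most increased by knockdown of Ddx18, and they are 10 of the 46683 gene symbols of the complete expression tables. All 10 are listed in 7 of the 8 tables. The table of the knockdown in wild-type cells holds 4769 selected genes, and 6 of the 10 are among them.

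The study asked how the nucleolar RNA helicase DDX18 acts in early embryos and in the maintenance of mouse embryonic stem cells (ESCs), and set its loss beside inhibition of RNA polymerase I and of translation. All ESCs were CJ9 cells or knockout lines, of strain 129S1/SVImJ and grown in serum with LIF. Knockdown of Ddx18 was compared with a control in CJ9 ESCs, in EZH2 KO ESCs and in p53 KO ESCs, with 2 libraries in each group, so that both groups of the latter pairs carried the knockout. CJ9 ESCs received the RNA polymerase I inhibitor CX-5461 at 1 or 0 µM (3 libraries each), ActD (actinomycin D) at 0 ng/ml (3 libraries), 5 ng/ml (2 libraries) or 10 ng/ml (2 libraries), or the translation inhibitor CHX (cycloheximide) at 10 or 0 µM (2 libraries each). p53 KO ESCs received ActD at 10 or 0 ng/ml (2 libraries each), although the source label of these libraries names CJ9 cells and only the titles name the knockout. Embryos at E3.5, of strain C57/B6 and taken from mothers heterozygous for Ddx18, were Ddx18 knockout or wild type (2 libraries each). How the knockdown was made, whether each knockout line was 1 clone, the length of treatment and the number of embryos in a library are not given in the labels.

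YAP1 and WWTR1 (also called TAZ) are transcriptional coactivators that have no DNA-binding domain of their own and reach DNA through the TEAD factors. The Hippo kinases, with LATS1 and LATS2 at the end of the cascade, phosphorylate them and hold them in the cytoplasm, and angiomotins bind YAP at cell junctions. CYR61 and CTGF, secreted matricellular proteins of the CCN family, are the targets most often used to read the activity of the pathway, and AMOTL2 and LATS2 are both regulators and targets of it. In the mouse blastocyst, YAP with TEAD4 drives Cdx2 in the outer cells that form the trophectoderm, while Hippo signalling keeps YAP out of the nuclei of the inner cells.

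TEAD factors recognise the core GGAATG, which reads CATTCC on the other strand. The windows of 300 bases around the RefSeq start sites, from 250 bases before the start to 50 bases from it on, were searched for this core on both strands. RefSeq (GRCm38.p6) gave a window for 7 of the 10 genes, and Ctgf, Tead1 and Tead4 were not among them. These genes have 9 windows, of which 7 held the core, against 14.7% of all 32851 windows of the table. The 2 windows of Wwtr1 overlap and share 1 site. The window of Amotl1 and 1 of the 2 windows of Lats2 had none. None of the 9 windows of the 7 genes held an AP-1 site (TGANTCA, found in 7.81% of all windows), a CArG box (1.63%) or a p53 half-site (8.36%). The windows of 5 genes are printed because they carry the core, which stands in capitals, and because their transcripts run from the strongest response to none. In Cyr61, for which RefSeq uses the symbol Ccn1, it began 103 bases before the start, in Amotl2 65 bases and in Yap1 141 bases before it. The RefSeq start used for Amotl2 lay 1003 bases from the start of that gene in the expression tables. Ankrd1 held a pair of cores, 210 and 123 bases before its start. In the other window of Lats2 the core began 5 bases into the transcript. A match of these letters is a description of the window and shows no binding.
Cyr61, chr3:145649936-145650235, minus strand: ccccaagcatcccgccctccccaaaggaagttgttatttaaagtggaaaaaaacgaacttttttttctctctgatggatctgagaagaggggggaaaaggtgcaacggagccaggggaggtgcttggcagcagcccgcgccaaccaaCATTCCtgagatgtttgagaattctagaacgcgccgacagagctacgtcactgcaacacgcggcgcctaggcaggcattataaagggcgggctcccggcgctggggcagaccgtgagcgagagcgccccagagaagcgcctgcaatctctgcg
Amotl2, chr9:102717554-102717853, plus strand: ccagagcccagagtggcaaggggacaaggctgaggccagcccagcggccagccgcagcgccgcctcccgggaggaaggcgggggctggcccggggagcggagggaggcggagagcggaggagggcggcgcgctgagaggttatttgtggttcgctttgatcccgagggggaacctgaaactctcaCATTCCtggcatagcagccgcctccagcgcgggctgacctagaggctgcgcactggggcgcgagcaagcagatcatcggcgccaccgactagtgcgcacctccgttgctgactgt
Lats2, chr14:57746074-57746373, minus strand: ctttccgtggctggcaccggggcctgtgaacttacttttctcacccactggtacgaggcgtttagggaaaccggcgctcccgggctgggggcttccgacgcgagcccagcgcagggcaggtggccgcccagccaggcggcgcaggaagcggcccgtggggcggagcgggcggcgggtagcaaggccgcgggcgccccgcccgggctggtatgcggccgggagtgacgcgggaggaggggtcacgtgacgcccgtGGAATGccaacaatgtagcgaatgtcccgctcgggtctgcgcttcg
Yap1, chr9:8004547-8004846, minus strand: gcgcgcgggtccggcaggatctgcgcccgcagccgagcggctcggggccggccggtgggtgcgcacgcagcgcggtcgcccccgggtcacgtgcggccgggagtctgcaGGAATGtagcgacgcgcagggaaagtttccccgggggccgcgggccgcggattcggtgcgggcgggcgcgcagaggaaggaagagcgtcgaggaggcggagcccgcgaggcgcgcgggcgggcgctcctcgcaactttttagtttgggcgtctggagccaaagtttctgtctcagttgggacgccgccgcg
Ankrd1, chr19:36119795-36120094, minus strand: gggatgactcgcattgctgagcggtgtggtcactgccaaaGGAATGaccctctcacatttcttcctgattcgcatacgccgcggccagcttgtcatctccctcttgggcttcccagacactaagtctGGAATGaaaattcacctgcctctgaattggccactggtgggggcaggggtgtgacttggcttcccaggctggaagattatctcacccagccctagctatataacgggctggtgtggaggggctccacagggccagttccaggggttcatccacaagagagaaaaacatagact

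Levels are FPKM, the authors' fragments per length of transcript and per depth of sequencing. The 8 tables were made separately, so changes were taken only within a table, and levels of different tables may not share a scale. Read totals, known for 19 of the 37 libraries, ran from 7112852 to 22983179 mapped reads. Changes are differences of group means of log2(FPKM + 1), treated minus control, given with the standard error of limma, and a change was called at a Benjamini-Hochberg adjusted p under 0.05 over all genes tested. This scale understates the change of low transcripts. Genes were tested where at least as many libraries as the smaller group holds reached 1 FPKM. The labels do not say that libraries came from separate cultures, so p-values here reflect only how far these libraries spread. Depletion of Ddx18 was seen in all 3 knockdowns, with 86.9 against 9.23 FPKM in ESCs, 86 against 16.5 in EZH2 KO and 43.3 against 3.47 in p53 KO ESCs, and in the embryos, with 16.5 against 2.91 FPKM. The ESC markers were present in all groups. The libraries titled p53 KO still listed Trp53, at 97.9 and 119 FPKM in their 2 control groups. With ActD and with knockdown of Ddx18 these cells averaged 184 and 227 FPKM of Trp53. In CJ9 ESCs it averaged 253, 253 and 384 FPKM in the ActD, CHX and knockdown controls and 41.1 FPKM in the CX-5461 controls. Ezh2 averaged 3.52 FPKM in the EZH2 KO controls.

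Before any treatment, and per length, the coactivator Yap1 and the factor Tead1 stood first in the controls of the CX-5461, ActD and CHX tables and of the ActD table of p53 KO ESCs. In the CX-5461 controls Yap1 averaged 27.6 FPKM and Tead1 17.2 FPKM, in the ActD controls Yap1 20.7 and Tead1 18 FPKM, in the CHX controls Yap1 17.1 and Tead1 20.5 FPKM, and in the p53 KO ActD controls Yap1 24.2 and Tead1 24.4 FPKM. The 2 did not differ beyond the spread of their libraries in the ActD and p53 KO ActD tables. Amotl2 came next in these 4 tables, at 7.34 to 11.8 FPKM. Below it lay Ctgf, Tead4, Wwtr1, Cyr61 and Amotl1, between 1.21 and 8.89 FPKM, and in all of these tables but that of CX-5461 some of them overlapped with their neighbours in the order. Lats2 stood under them at 0.259 to 0.702 FPKM, and Ankrd1, a nuclear ankyrin repeat protein of muscle and a common YAP readout in other cells, was listed at 0 in every one of these control libraries. Ankrd1 reached no more than 0.273 FPKM in any library of the series and passed the filter on low values in no table, so no change is given for it. The order differed in the knockdown controls of p53 KO ESCs, where Amotl2 averaged 35.1, Yap1 33.4 and Ctgf 32.3 FPKM with overlapping libraries, ahead of Cyr61 at 22.8 and Tead1 at 21 FPKM. In those of ESCs, where Yap1 is not listed, Tead1 at 24.5 FPKM was followed by Ctgf at 17.2 and Amotl2 at 15.6 FPKM. In the wild-type embryos the 10 transcripts averaged from 0 to 4.53 FPKM. There Cyr61, Wwtr1, Tead4, Amotl2, Yap1, Lats2 and Tead1 followed each other with overlapping libraries.

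**Figure D1:**
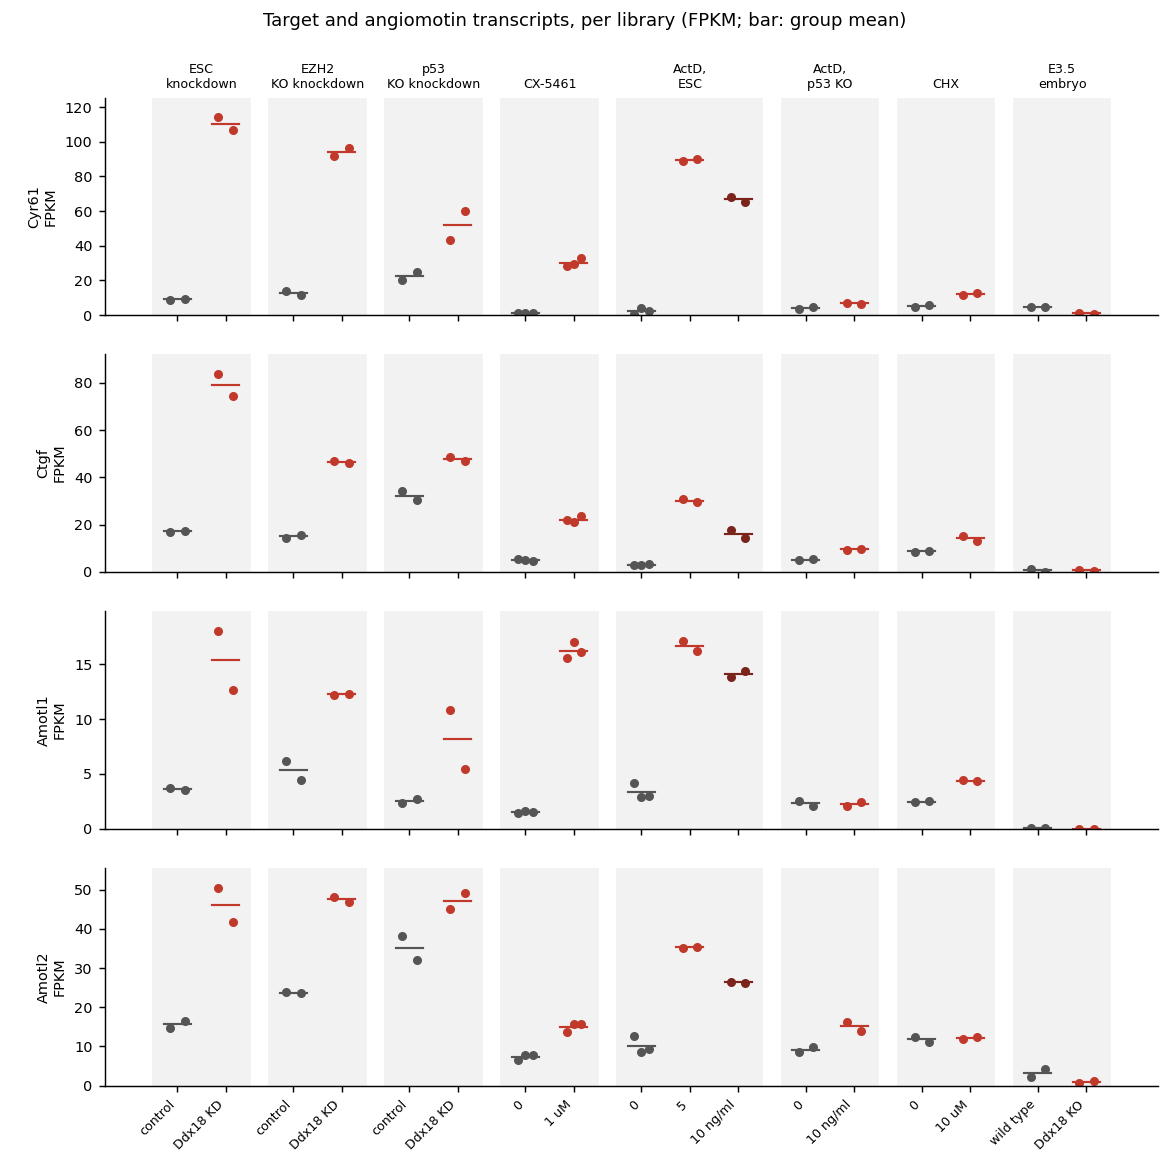
FPKM (y axis, linear, one scale per gene) of Cyr61, Ctgf, Amotl1 and Amotl2 in each library, by table and group (x axis); each point is 1 library and each bar the group mean. Cyr61 lies at 28.3 to 32.7 FPKM with CX-5461 against 1.04 to 1.3 in its controls, and at 6.68 to 6.89 FPKM with ActD in p53 KO ESCs against 65.2 to 68.4 with the same dose in ESCs.

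Cyr61 had the largest change of the 10 with CX-5461 and with either dose of ActD in ESCs. With CX-5461 its 3 libraries read 28.3, 29.7 and 32.7 FPKM against 1.28, 1.04 and 1.3 FPKM in the controls. The groups lay far apart, with a ratio of means of 25.1 and a log2 change of 3.82 ± 0.09 (adjusted p = 2.81e-07, limma), which had rank 18 among the rises of 12966 genes. With ActD at 5 ng/ml it read 88.8 and 90.1 FPKM against controls of 0.753, 4.06 and 2.57 FPKM, a log2 change of 4.84 ± 0.41 (adjusted p = 0.000205, limma). At 10 ng/ml it read 68.4 and 65.2 FPKM, a log2 change of 4.42 ± 0.41 (adjusted p = 0.000205, limma). The control libraries spread widely around their mean of 2.46 FPKM, yet every treated library stood far above the highest of them. The ranks among 14522 genes were 12 at 5 ng/ml and 45 at 10 ng/ml. With CHX, where Lats2 had a larger change, Cyr61 went from 4.74 and 5.99 FPKM to 11.5 and 12.7 FPKM, a log2 change of 1.05 ± 0.14 (adjusted p = 0.00407, limma).

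Cyr61 had no called change with ActD in p53 KO ESCs. It read 3.69 and 4.96 FPKM without and 6.89 and 6.68 FPKM with 10 ng/ml, groups that did not overlap but differed by a log2 change of 0.56 ± 0.17 that missed the threshold (adjusted p = 0.0521, limma). It was called with a minimum of 5 FPKM (adjusted p = 0.0366) and was 0.21 after rescaling between libraries (adjusted p = 0.357, limma). In the Ddx18 knockout embryos it lay in the opposite direction, at 1.31 and 0.617 FPKM against 4.58 and 4.49 FPKM in wild type. The ratio of means was 0.213 and the log2 change -1.52 ± 0.38, which did not pass (adjusted p = 0.0678, limma).

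The knockdowns of Ddx18 chose the genes, so their values are a description without a test. Cyr61 read 114 and 107 FPKM with knockdown in ESCs against 8.94 and 9.22 FPKM in the controls, the largest log2 change of the 4695 listed genes that passed the filter. In EZH2 KO ESCs it read 91.7 and 96.4 against 14.2 and 11.6 FPKM, and had rank 4 of 11773 genes. With the p53 knockout it read 43.2 and 60.3 against 20.5 and 25 FPKM, and had rank 767 of 11636 genes. The groups were apart in all 3, and the ratio of means was 12.1, 7.29 and 2.27 in that order. These 3 tables and the ones above have no control library in common, and the difference between the 3 ratios was not tested.

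Ctgf, the other CCN member of the set, rose less than Cyr61 with CX-5461, ActD and CHX in ESCs, and was the one called with ActD in p53 KO ESCs. CX-5461 took it from 5.29, 5.25 and 4.76 FPKM to 21.9, 21 and 23.6 FPKM, a log2 change of 1.92 ± 0.07 (adjusted p = 1.63e-06, limma). With ActD it stood at 2.87, 3.14 and 3.38 FPKM without, 30.9 and 29.5 FPKM at 5 ng/ml and 17.9 and 14.5 FPKM at 10 ng/ml. The rise was 2.92 ± 0.12 at the lower dose (adjusted p = 2e-05) and 2.06 ± 0.12 at the higher one (adjusted p = 4.02e-05, limma). Ctgf was also the single gene of the set that differed between the doses, with a fall of -0.86 ± 0.14 from 5 to 10 ng/ml (adjusted p = 0.0368, limma). That call was lost when any 1 of 6 of the 7 libraries was left out (adjusted p up to 0.24). With CHX it rose from 8.58 and 8.76 FPKM to 15.4 and 13.2 FPKM (0.66 ± 0.11, adjusted p = 0.00816, limma). ActD took it in p53 KO ESCs from 4.91 and 5.38 FPKM to 9.45 and 9.71 FPKM, a rise of 0.78 ± 0.13 (adjusted p = 0.0109, limma). With FPKM rescaled between libraries this rise was 0.42 and was not called. Ctgf stayed under the filter in the embryos, at 0.169 to 1.31 FPKM in all 4 libraries. With knockdown it read 83.7 and 74.6 against 16.9 and 17.4 FPKM in ESCs, 46.8 and 46.2 against 14.5 and 15.6 FPKM in EZH2 KO, and 48.4 and 46.8 against 34.2 and 30.4 FPKM in p53 KO ESCs.

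The angiomotins AMOTL1 and AMOTL2 are junction and actin-associated scaffolds that bind YAP. Amotl1 had the second largest change with CX-5461, from 1.4, 1.61 and 1.51 FPKM to 15.6, 17 and 16.1 FPKM, a log2 change of 2.78 ± 0.08 (adjusted p = 5.55e-07, limma). ActD took it from 4.21, 2.88 and 3 FPKM to 17.1 and 16.2 FPKM at 5 ng/ml (2.03 ± 0.16, adjusted p = 0.000144) and 13.8 and 14.4 FPKM at 10 ng/ml (1.80 ± 0.16, adjusted p = 0.000157, limma). With CHX it rose from 2.43 and 2.51 to 4.41 and 4.35 FPKM (0.63 ± 0.14, adjusted p = 0.0158, limma). Its libraries with and without ActD overlapped in p53 KO ESCs, at 2.03 and 2.48 against 2.56 and 2.06 FPKM, a log2 change of -0.03 ± 0.19 (adjusted p = 0.923, limma). In the embryos it was close to absent, with at most 0.109 FPKM in wild type and listed at 0 in both knockout libraries. With knockdown it read 18 and 12.7 against 3.74 and 3.54 FPKM in ESCs, 12.2 and 12.3 against 6.15 and 4.48 FPKM in EZH2 KO, and 10.8 and 5.47 against 2.3 and 2.72 FPKM in p53 KO ESCs. The 2 knockdown libraries of the p53 KO cells lay far from each other, although both were above the controls.

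Amotl2 rose with CX-5461 from 6.52, 7.67 and 7.83 FPKM to 13.6, 15.7 and 15.8 FPKM (0.94 ± 0.09, adjusted p = 0.000103, limma). With ActD it went from 12.7, 8.56 and 9.29 FPKM to 35.2 and 35.5 FPKM at 5 ng/ml (1.72 ± 0.16, adjusted p = 0.000292) and to 26.6 and 26.1 FPKM at 10 ng/ml (1.31 ± 0.16, adjusted p = 0.000655, limma). It was the angiomotin that also rose in p53 KO ESCs, from 8.5 and 9.72 FPKM to 16.1 and 14 FPKM (0.67 ± 0.13, adjusted p = 0.0172, limma), which fell to 0.29 and lost its call after rescaling between libraries. With CHX its libraries overlapped, at 11.8 and 12.4 against 12.4 and 11.2 FPKM (0.04 ± 0.10, adjusted p = 0.794, limma). In the knockout embryos it read 0.593 and 1.04 FPKM against 2.22 and 4.14 FPKM, lower in both libraries but not called (-1.17 ± 0.41, adjusted p = 0.133, limma). With knockdown it read 50.5 and 41.8 against 14.7 and 16.5 FPKM in ESCs, 48.2 and 46.8 against 23.8 and 23.6 FPKM in EZH2 KO, and 45 and 49.3 against 38.3 and 32 FPKM in p53 KO ESCs.

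**Figure D2:**
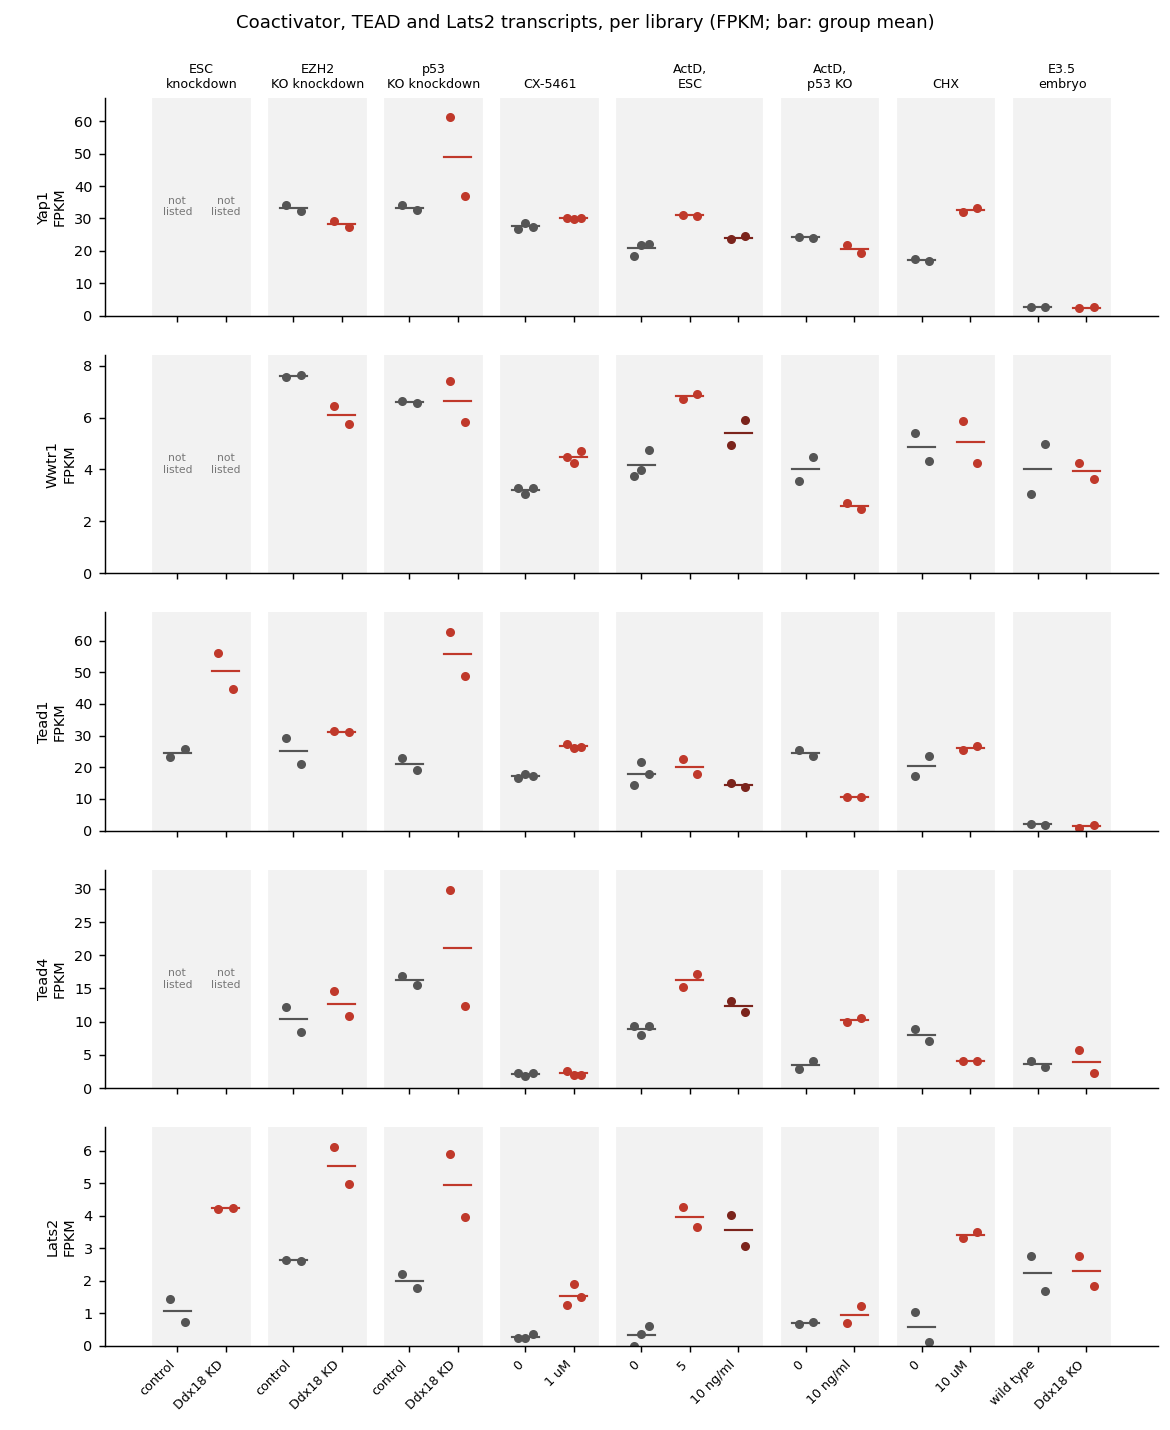
FPKM (y axis, linear, one scale per gene) of Yap1, Wwtr1, Tead1, Tead4 and Lats2 in each library, by table and group (x axis); each point is 1 library and each bar the group mean, and genes missing from the table of selected genes are marked. Tead1 falls from 25.3 and 23.6 to 10.6 and 10.7 FPKM with ActD in p53 KO ESCs, where Tead4 rises from 2.85 and 4.11 to 9.91 and 10.6 FPKM.

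With CX-5461 and ActD in ESCs the coactivator transcripts changed less than those of Cyr61 and Ctgf. Yap1 had no called change with CX-5461, at 30.2, 29.8 and 30 against 26.7, 28.6 and 27.3 FPKM, although the groups did not overlap (0.12 ± 0.05, adjusted p = 0.0835, limma). It rose with ActD at 5 ng/ml, from 18.3, 21.8 and 22.1 to 31 and 30.9 FPKM (0.56 ± 0.10, adjusted p = 0.00461, limma), and at 10 ng/ml it read 23.6 and 24.5 FPKM (0.21 ± 0.10, adjusted p = 0.123, limma). Its largest rise came with CHX, from 17.4 and 16.8 to 32.1 and 33.2 FPKM (0.90 ± 0.08, adjusted p = 0.00117, limma), the one call of the CHX comparison that held with each of the 4 libraries left out. Wwtr1, which encodes TAZ, rose with CX-5461 from 3.27, 3.06 and 3.28 to 4.49, 4.24 and 4.71 FPKM (0.38 ± 0.08, adjusted p = 0.00457, limma). At 5 ng/ml ActD it read 6.73 and 6.91 against 3.75, 4 and 4.76 FPKM (0.60 ± 0.15, adjusted p = 0.0149, limma), a call lost after rescaling (0.45), and at 10 ng/ml it read 4.93 and 5.9 FPKM (0.31 ± 0.15, adjusted p = 0.112, limma). With ActD in p53 KO ESCs both lay below their controls without a call, Yap1 at -0.22 ± 0.10 (adjusted p = 0.143) and Wwtr1 at -0.47 ± 0.17 (adjusted p = 0.085, limma), and rescaling turned both into calls at -0.62 and -0.78. In the knockout embryos neither moved beyond its spread, with Yap1 at 2.3 and 2.64 against 2.61 and 2.65 FPKM (-0.06 ± 0.36, adjusted p = 0.937) and Wwtr1 at 4.26 and 3.64 against 3.05 and 4.99 FPKM (0.01 ± 0.39, adjusted p = 0.995, limma). Yap1 read 29.2 and 27.3 against 34.2 and 32.4 FPKM with knockdown in EZH2 KO ESCs and 61.2 and 36.9 against 34.3 and 32.5 FPKM in p53 KO ESCs, so it lay lower in the one line and higher in the other. Wwtr1 read 6.45 and 5.76 against 7.57 and 7.65 FPKM in EZH2 KO and overlapped in p53 KO ESCs.

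Among the DNA-binding partners, Tead1 rose with CX-5461 from 16.7, 17.7 and 17.3 to 27.5, 26.2 and 26.5 FPKM (0.61 ± 0.06, adjusted p = 7.02e-05, limma). In ESCs with ActD it was not called, at 0.16 ± 0.18 (adjusted p = 0.498) with 5 ng/ml and -0.30 ± 0.18 (adjusted p = 0.204, limma) with 10 ng/ml. With 10 ng/ml in p53 KO ESCs it fell from 25.3 and 23.6 to 10.6 and 10.7 FPKM (-1.12 ± 0.10, adjusted p = 0.00455, limma). Tead4, the family member needed for the trophectoderm, did the opposite in those cells and rose from 2.85 and 4.11 to 9.91 and 10.6 FPKM (1.34 ± 0.18, adjusted p = 0.0073, limma). In ESCs Tead4 rose with ActD from 9.3, 7.98 and 9.38 to 15.3 and 17.1 FPKM at 5 ng/ml (0.80 ± 0.12, adjusted p = 0.00217, limma). At 10 ng/ml it read 13.1 and 11.5 FPKM (0.43 ± 0.12, adjusted p = 0.0215, limma), a call lost after rescaling (0.28) and without any 1 of 3 of the 7 libraries (adjusted p up to 0.136). It overlapped its controls with CX-5461 (0.04 ± 0.11, adjusted p = 0.762, limma) and fell with CHX, from 8.89 and 7.08 to 4.04 and 4.01 FPKM (-0.83 ± 0.15, adjusted p = 0.00896, limma). With knockdown Tead1 read 56.2 and 44.7 against 23.2 and 25.8 FPKM in ESCs, 31.5 and 31.1 against 29.2 and 20.9 FPKM in EZH2 KO, and 62.7 and 48.7 against 22.9 and 19.1 FPKM in p53 KO ESCs. Tead4 overlapped its controls in both knockout lines. In the knockout embryos Tead1 read 0.885 and 1.81 against 2.23 and 1.79 FPKM (-0.38 ± 0.38, adjusted p = 0.575) and Tead4 5.74 and 2.24 against 4.11 and 3.11 FPKM (0.03 ± 0.47, adjusted p = 0.979, limma), and for both the groups overlapped.

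Lats2, the kinase that phosphorylates YAP, was near the floor in the untreated ESCs. With CX-5461 it read 1.24, 1.89 and 1.48 against 0.218, 0.218 and 0.341 FPKM (1.00 ± 0.12, adjusted p = 0.000269, limma). With ActD it read 4.27 and 3.66 FPKM at 5 ng/ml and 4.01 and 3.07 FPKM at 10 ng/ml against 0, 0.364 and 0.592 FPKM (1.94 ± 0.24 and 1.80 ± 0.24, adjusted p = 0.000978 and 0.000995, limma). With CHX it read 3.32 and 3.49 against 1.02 and 0.11 FPKM (1.56 ± 0.32, adjusted p = 0.013, limma). It passed the filter on low values in these comparisons only through treated libraries, so a difference was built in and these calls are given as values. It stayed under the filter in p53 KO ESCs, at 0.679 and 1.21 with and 0.676 and 0.728 FPKM without ActD. In the embryos the groups overlapped, at 2.76 and 1.84 against 2.75 and 1.68 FPKM (0.04 ± 0.39, adjusted p = 0.964, limma). With knockdown it read 4.21 and 4.24 against 1.42 and 0.725 FPKM in ESCs, 6.11 and 4.96 against 2.63 and 2.61 FPKM in EZH2 KO, and 5.91 and 3.97 against 2.21 and 1.78 FPKM in p53 KO ESCs.

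**Figure D3:**
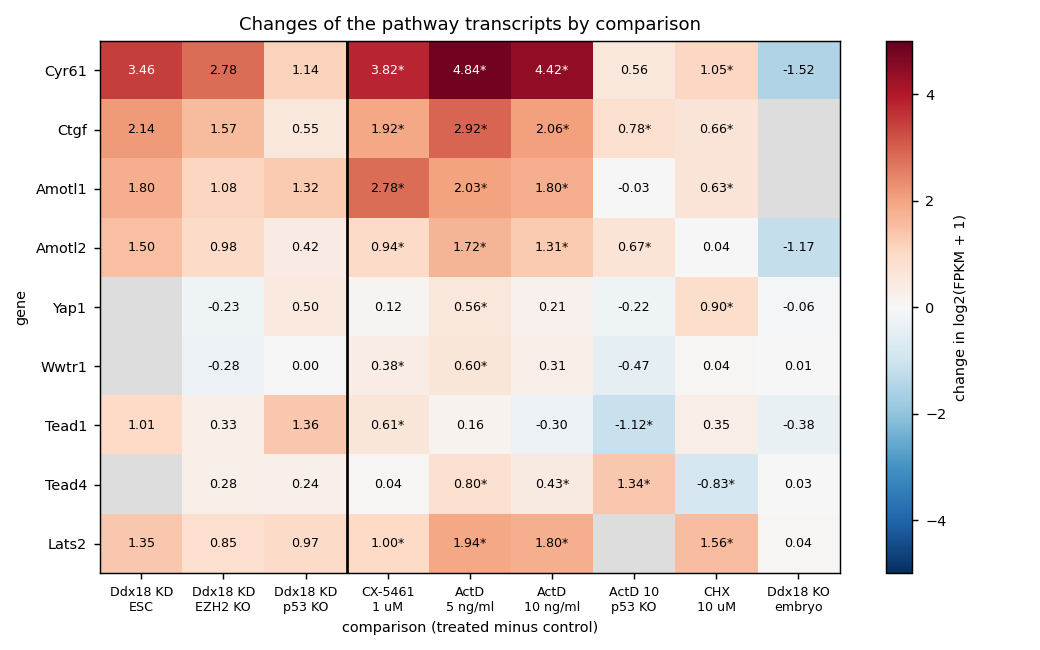
Change in log2(FPKM + 1), treated minus control, of 9 genes (rows) in 9 comparisons (columns), with red for higher and blue for lower; a star marks an adjusted p under 0.05, grey a gene under the filter or not listed, and the columns left of the black line are the knockdowns that chose the genes and were not tested. Cyr61 runs from 4.84 with ActD at 5 ng/ml to -1.52 in the knockout embryos.

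Set against all genes, CX-5461 changed much of the transcriptome, and 7 of the 10 genes were called higher and none lower, where 32.9% of the 12966 genes tested were called higher and 28.9% lower. Of the other 3, Yap1 and Tead4 were not called and Ankrd1 was under the filter. The median log2 change of the 9 genes tested was 0.94, and of all genes 0.03. One of the 7, Lats2, passed the filter through its treated libraries, and without it 6 were called and the median was 0.77. Each of the 7 calls held with each of the 6 libraries left out. All 6 libraries carried the same tag in the column headers, a letter and a digit whose meaning is not given.

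ActD at 5 ng/ml gave 8 calls higher among the 10, with 32.9% of 14522 genes called higher and 16.1% lower. At 10 ng/ml there were 6 higher, with 36.4% of genes called higher and 20.0% lower. The medians of the genes tested were 1.72 and 1.31, and of all genes 0.24 and 0.25. Without Lats2, whose difference the filter built in, there were 7 and 5 calls and medians of 1.26 and 0.87. After rescaling between libraries, 27.2% of genes were called higher and 21.1% lower at 5 ng/ml, and 7 of the 10 genes higher. At 10 ng/ml 5 of them were then called. Both doses share their 3 control libraries, and no header tag held both control and treated libraries, so that tag and treatment cannot be told apart. The share of reads that mapped was 70.1 to 73.55% in the controls and 77.61 to 78.65% in the treated libraries, and its part in the result was not tested. Between the doses 1.47% of genes were called higher and 1.47% lower. Of the 9 genes tested, 8 had both libraries at 10 ng/ml below both at 5 ng/ml, a pattern that 29.2% of all genes showed, and only Ctgf was called.

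CHX gave 5 calls higher (Cyr61, Ctgf, Amotl1, Yap1 and Lats2) and 1 lower (Tead4), where 33.2% of 13257 genes were called higher and 19.8% lower. Without Lats2, again built in by the filter, 4 of 8 were higher and 1 lower. Leaving out any 1 of the 4 libraries left 1 to 3 of these 6 calls. After rescaling 26.9% of genes were called higher and 26.3% lower, and the counts for the set stayed at 5 and 1. The header tag shared by 1 control and 1 treated library gave within it 0.84 for Cyr61, 0.90 for Yap1 and -0.68 for Tead4, the same directions as over all libraries. The share of mapped reads was 74.29 to 78.47% in the controls and 79.02 to 79.52% with CHX, and its part in the result was not tested.

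In the embryos 0 of the 10 genes were called, by limma, and 0.633% of 8687 genes were called higher and 4.55% lower. Without adjustment 2273 of all genes had a p under 0.05, and none of the 10 was called under any of the alternatives run. Of the 7 that passed the filter, Cyr61 and Amotl2 were the 2 whose knockout libraries both lay below both wild-type libraries, as did 42.4% of all genes. The median log2 change of all genes was -0.31, and after rescaling 0.478% were called higher and 0.967% lower. The 8 trophectoderm genes summed to 206 to 210 FPKM in wild type and to 52.1 to 65 FPKM in the knockout, and 2 of the 6 tested were called lower. Of the 8, Elf5 was listed at 0 in both knockout libraries. The ESC markers also lay lower, with a sum of 256 to 360 FPKM in wild type and 109 to 117 FPKM in the knockout. Of the 8 tested, 1 was called lower, Nanog, from 128 to 2.32 FPKM (-5.34 ± 0.52, adjusted p = 0.0234, limma). The primitive and parietal endoderm markers summed to 52.3 to 64.9 FPKM in wild type and 25.8 to 30.5 FPKM in the knockout, with 0 of 5 called. The keratins Krt8 and Krt18, epithelial filament proteins of the trophectoderm, fell, Krt8 from 88.5 to 9.41 FPKM (-3.11 ± 0.27) and Krt18 from 64.3 to 10.7 FPKM (-2.48 ± 0.27), both with an adjusted p of 0.0234 (limma). With any 1 of the 4 libraries left out, or with no filter on low values, 0 genes in all were called in the embryos by limma, these 2 included. In bulk samples fewer cells of a type and less RNA per cell cannot be told apart, and the part of the trophectoderm or any other cell type in the values of Cyr61 and Amotl2 was not tested.

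In the knockdowns, 6 of the 6 genes listed in ESCs had groups that did not overlap, all higher, in a table whose genes were all apart (56.3% higher and 43.7% lower). In EZH2 KO ESCs 6 were apart higher and 2 lower, where 36.7% of genes were higher and 20.7% lower. In p53 KO ESCs 7 were apart higher and none lower, where 49.4% of genes were higher and 11.8% lower. The median of all genes was shifted by 0.30, 0.09 and 0.34 in these tables. Relative to that shift in p53 KO ESCs, the rescaled log2 change was 0.74 for Cyr61, 0.96 for Tead1, 0.66 for Lats2, 0.15 for Ctgf, 0.10 for Yap1 and 0.01 for Amotl2. Amotl1, also apart and higher in p53 KO ESCs, had a log2 change of 1.32 before rescaling. Since the genes were chosen on this contrast, nothing is read from these counts.

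**Figure D4:**
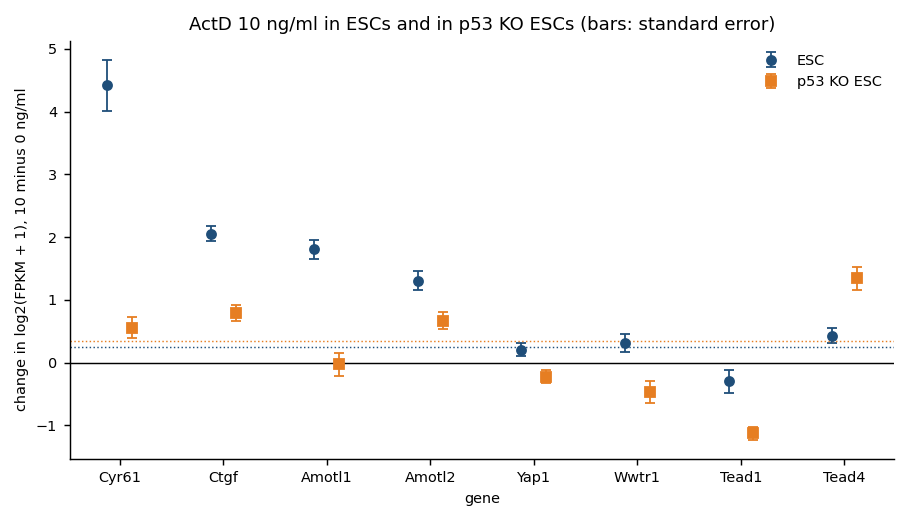
Change in log2(FPKM + 1) from 0 to 10 ng/ml ActD (y axis) for 8 genes (x axis) in ESCs (circles) and in p53 KO ESCs (squares); bars are standard errors and dotted lines the median of all genes in each. Cyr61 stands at 4.42 in ESCs and 0.56 in p53 KO ESCs, and Tead4 at 0.43 and 1.34.

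The response to ActD at 10 ng/ml differed between the genotypes. In p53 KO ESCs 3 of the 10 genes were called higher (Ctgf, Amotl2 and Tead4) and 1 lower (Tead1), where 32.7% of 13145 genes were called higher and 4.33% lower. With any 1 of the 4 libraries left out none of these calls remained, and at most 5 of all genes were then called. Rescaling turned the calls over all genes from 32.7% higher and 4.33% lower to 10.1% higher and 13.4% lower, and those of the set to 1 higher and 3 lower. The difference of the 2 effects was tested directly, ESCs minus p53 KO ESCs, in 12198 genes, of which 12.5% were called higher and 23.3% lower, or 16.8% and 16.5% after rescaling. It was 3.86 ± 0.56 for Cyr61 (adjusted p = 0.00134), 1.83 ± 0.26 for Amotl1 (adjusted p = 0.00132) and 1.27 ± 0.20 for Ctgf (adjusted p = 0.00197, limma), so the change of these 3 was larger in ESCs, and each call held with any 1 of the 9 libraries left out. The difference was 0.82 ± 0.23 for Tead1 (adjusted p = 0.0242), 0.78 ± 0.24 for Wwtr1 (adjusted p = 0.0375) and -0.91 ± 0.23 for Tead4 (adjusted p = 0.0159, limma). Those for Tead1 and Wwtr1 held with 3 of the 9 libraries left out one at a time and that for Tead4 with 6, with adjusted p up to 0.15. Amotl2 (0.64 ± 0.24, adjusted p = 0.0732) and Yap1 (0.43 ± 0.16, adjusted p = 0.0675, limma) missed the threshold and passed it after rescaling, at 0.87 and 0.68. The 2 genotypes come from separate tables, and the test used each table's own difference. In ESCs no header tag held both control and treated libraries, so tag and treatment cannot be told apart in this difference either. Within the one header tag that held both groups in p53 KO ESCs, the change was 0.38 for Cyr61, 0.73 for Ctgf, -1.08 for Tead1 and 1.14 for Tead4. The share of mapped reads was 71.66 to 72.27% in the p53 KO controls and 76.77 to 78.29% with ActD, and its part in the result was not tested.

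Other genes of the pathway and its surroundings were counted in lists. Of 22 Hippo pathway components, 9 of the 20 tested rose and 4 fell with CX-5461, and 7 of 19 rose and 2 fell with ActD at 5 ng/ml. At 10 ng/ml 8 of 19 rose and 3 fell, with CHX 6 of 18 rose and 5 fell, and in p53 KO ESCs with ActD 6 of 20 rose and 4 fell. The shares that rose with ActD at 5 ng/ml, with CHX and in p53 KO ESCs were near the 32.9%, 33.2% and 32.7% of all genes, and nothing is read from them. With CX-5461 32.9% and with ActD at 10 ng/ml 36.4% of all genes were called higher. Ptpn14, a phosphatase that binds YAP, rose from 1.2 to 19.9 FPKM with CX-5461 (3.25 ± 0.08, adjusted p = 2.81e-07, limma) and from 8.2 to 29.9 FPKM with CHX (1.75 ± 0.09, adjusted p = 0.000449, limma). The scaffold gene Rassf1 rose from 1.54 to 20.1 FPKM with CHX (3.05 ± 0.13, adjusted p = 0.000268, limma). Of 22 further YAP-TEAD targets, 11 of the 15 tested rose and 1 fell with CX-5461, with a median of 0.84, and 11 of 18 rose with ActD at each dose, while 1 fell at 5 and 3 at 10 ng/ml. With CHX 5 of 14 rose and 1 fell, a share that rose near the 33.2% of all genes, and nothing is read from it. Among the 22 targets, 12 stayed under 1 FPKM in all CX-5461 controls and 8 in all ActD controls of ESCs. Those of them that were tested passed the filter through treated libraries, so a difference was built in. The receptor tyrosine kinase gene Axl rose from 0.967 to 16.4 FPKM with 5 ng/ml ActD (3.18 ± 0.24, adjusted p = 0.000145, limma), and the endothelin gene Edn1 from 0.099 to 5.78 FPKM with CX-5461 (2.63 ± 0.11, adjusted p = 1.91e-06, limma). Of these targets 8 of 15 rose and none fell with ActD in p53 KO ESCs, where 32.7% of all genes were called higher and 4.33% lower. After rescaling these shares of all genes were 10.1% and 13.4%. In the p53 KO controls 9 of the 22 targets stayed under 1 FPKM, and those of them tested passed the filter through treated libraries. Igfbp3, an IGF-binding protein gene, led the targets there at 4.08 to 11.7 FPKM (1.32 ± 0.13, adjusted p = 0.00476, limma). Axl differed between the genotypes by 2.35 ± 0.37 (adjusted p = 0.00186, limma), and over the list 4 of 14 differences were called higher and 1 lower. Over all genes 12.5% of differences were called higher and 23.3% lower. In the embryos 0 of 11 of the components and 0 of 2 of the targets that were tested were called, by limma.

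The TEAD paralogs and cofactors were called in both directions, with 3 of 4 higher and 1 lower in each of the CX-5461 and ActD comparisons in ESCs. Over all genes 32.9% were called higher and 28.9% lower with CX-5461. With ActD these shares were 32.9% and 16.1% at 5 ng/ml and 36.4% and 20.0% at 10 ng/ml. Of the 6 paralogs and cofactors 5 stayed under 1 FPKM in the CX-5461 controls, and those of them tested passed the filter through treated libraries. With ActD at 5 ng/ml Tead3 rose from 1.96 to 23.1 FPKM (3.04 ± 0.17, adjusted p = 4.61e-05, limma), while Tead2 fell with CX-5461 from 17.8 to 6.29 FPKM (-1.37 ± 0.09, adjusted p = 1.57e-05, limma) and rose with CHX from 42.3 to 54.7 FPKM (0.37 ± 0.08, adjusted p = 0.0147, limma). Tead3 also rose with ActD in p53 KO ESCs, from 1.05 to 4.83 FPKM (1.51 ± 0.17, adjusted p = 0.00545, limma). Vgll3, a TEAD cofactor of the vestigial-like family, rose from 0.392 to 9.74 FPKM with ActD at 10 ng/ml (2.99 ± 0.26, adjusted p = 0.000162, limma). Of the other CCN genes, only Wisp1 passed the filter in ESCs, and with CX-5461 it rose from 0.165 to 3.61 FPKM (1.98 ± 0.12, adjusted p = 8.72e-06, limma). Edn1 with CX-5461, Vgll3 with ActD and Wisp1 were under 1 FPKM in the controls and passed the filter through treated libraries.

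Targets of SRF and its MRTF coactivators, which respond to actin and share target genes such as Cyr61 and Ctgf with YAP, were counted beside them. Of 13 tested, 10 rose with CX-5461, 11 with ActD at 5 ng/ml and 9 at 10 ng/ml, and none fell. The shares of all genes called higher in these comparisons were 32.9%, 32.9% and 36.4%. The focal adhesion gene Zyx rose from 3.31 to 46.9 FPKM (3.49 ± 0.15, adjusted p = 2.02e-05, limma) and the tropomyosin gene Tpm1 from 42.3 to 236 FPKM (2.45 ± 0.06, adjusted p = 8.2e-06, limma) at 5 ng/ml. With CHX 5 of 14 rose and 4 fell. With ActD in p53 KO ESCs 5 of 16 rose and 2 fell, and both shares that rose were near the 33.2% and 32.7% of all genes. The difference between the genotypes was called higher in ESCs for 8 of 13 and lower for 1, with Tpm2 at 2.72 ± 0.23 (adjusted p = 0.000117, limma). Over all genes it was called higher for 12.5% and lower for 23.3%. In the embryos 1 of the 4 tested was called lower, as were 4.55% of all genes, or 0.967% after rescaling. Nothing is read from this 1 call.

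Over the 33 libraries of the 7 complete tables, with each value taken relative to the mean control of its table, the transcripts most like Cyr61 among 12787 genes were Cul4a (r = 0.976), a scaffold of a ubiquitin ligase, Ninj1 (r = 0.971), a membrane protein, Tpm1 (r = 0.967), Usp27x (r = 0.961), a deubiquitinase gene, and Flot2 (r = 0.958), a membrane microdomain protein. Of the set, Ctgf stood at r = 0.951 (rank 12), Amotl2 at 0.896, Amotl1 at 0.889 and Lats2 at 0.830, against 0.566 for Wwtr1, 0.330 for Yap1, 0.276 for Tead4, 0.275 for Tead1 and 0.241 for Ankrd1. The libraries share treatments and controls, so these values describe the profiles only. The libraries include the knockdowns in EZH2 KO and p53 KO ESCs that chose the genes, so nothing is read from the order.

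Markers of other cell types moved with the same treatments. The 8 trophectoderm genes summed to 13.7 to 15.9 FPKM in the CX-5461 controls and 165 to 167 FPKM with the drug, and 7 of the 7 tested rose. They summed to 32.9 to 60.7 FPKM without ActD, 893 to 902 FPKM with 5 ng/ml and 670.1 to 695 FPKM with 10 ng/ml in ESCs, again 7 of 7 higher, with Krt18 from 8.56 to 311 FPKM (5.17 ± 0.40, adjusted p = 0.000151, limma) at 5 ng/ml. In p53 KO ESCs with ActD the sum went from 35.5 to 36.6 FPKM to 61.1 to 61.7 FPKM and 4 of 6 rose, and with CHX it lay at 28.6 to 33.7 and 20.7 to 25.5 FPKM, with 0 of 3 higher and 1 lower. Elf5, a defining gene of the trophoblast lineage, was listed at 0 in the ESC controls of the ActD, CHX and CX-5461 tables and reached at most 0.325 FPKM in their treated libraries. Among the 8 genes, 5 stayed under 1 FPKM in all CX-5461 controls and 4 in all ActD controls of ESCs. Those of them that were tested passed the filter through treated libraries, so a difference was built in. The shares of all genes called higher were 32.9% with CX-5461 and 32.9% and 36.4% with ActD at 5 and 10 ng/ml in ESCs. In p53 KO ESCs with ActD the share was 32.7%. With knockdown the listed genes of this set summed to 149 to 182 against 32.6 to 36 FPKM in ESCs (5 of 8 listed), 109 to 111 against 36.9 to 45.2 FPKM in EZH2 KO and 154 to 207 against 95 to 109 FPKM in p53 KO ESCs.

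Most of the 8 ESC markers were called lower with CX-5461, ActD and CHX. Their sum went from 986 to 1113 FPKM to 411 to 438 FPKM with CX-5461 (7 of 8 called lower), from 1172 to 1277 FPKM to 334 to 351 FPKM with ActD at 5 ng/ml (7 of 8), and from 1067 to 1088 FPKM to 593 to 617 FPKM with CHX (5 of 8). In p53 KO ESCs with ActD it went from 941 to 975 FPKM to 818 to 866 FPKM, with 5 of 8 lower and 2 higher. With knockdown it was 789 to 822 against 1107 to 1127 FPKM in ESCs (4 of 8 listed), 1677 to 1684 against 1979 to 2023 FPKM in EZH2 KO, and 2202 to 2682 against 1705 to 1810.3 FPKM in p53 KO ESCs. The shares of all genes called lower were 28.9% with CX-5461, 16.1% with ActD at 5 ng/ml, 19.8% with CHX and 4.33% with ActD in p53 KO ESCs. The primitive and parietal endoderm markers rose in 4 of 4 tested with CX-5461 and in 6 of 9 with ActD at 5 ng/ml, where 1 fell. The mesoderm and primitive streak markers rose in 1 of 1 tested with CX-5461 and CHX and in 2 of 2 with ActD. The shares of all genes called higher were 32.9% with CX-5461, 32.9% and 36.4% with ActD at 5 and 10 ng/ml and 33.2% with CHX. All 8 mesoderm markers stayed under 1 FPKM in the CX-5461 controls and 7 of them in the ActD controls. Of the 12 endoderm markers 10 and 5 did so. Those of these markers that were tested passed the filter through treated libraries, so a difference was built in. Of the fibroblast markers 0 of 1 was called with CX-5461 and 1 of 4 rose with ActD at 5 ng/ml and 3 of 4 at 10 ng/ml, with Col1a1 from 0.401 to 2.58 FPKM (1.36 ± 0.19, adjusted p = 0.00127, limma) at the higher dose. Their sum was 14.8 to 21.5 FPKM without, 24.9 to 26.2 FPKM with 5 and 29.7 to 30.8 FPKM with 10 ng/ml ActD, and 15.8 to 19.6 against 48.4 to 49.5 FPKM in p53 KO ESCs, where Thy1 rose from 15.9 to 45.05 FPKM (1.45 ± 0.13, adjusted p = 0.00448, limma). With CHX Thy1 fell from 16.2 to 4.28 FPKM (-1.71 ± 0.17, adjusted p = 0.00175, limma). The fibroblast markers Dcn, Lum and Fap were listed at 0 in the controls and the treated libraries of the CX-5461 and ActD tables in ESCs, and 11 of the 12 markers stayed under 1 FPKM in both groups of the CX-5461 table. In the ActD controls of ESCs 10 of the 12 stayed under 1 FPKM, Col1a1 included. Those of them that were tested passed the filter through treated libraries, so a difference was built in. The part of any of these cell type markers in the values of Cyr61, Ctgf, Amotl1 and Amotl2 was not tested.

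Regions bound by DDX18 were examined for the same genes. The 2 CLIP libraries, which mark RNA crosslinked to the protein, held 880 and 939 deposited regions, and the 2 TAP libraries 635 and 741. In all of them 1 region had a gene of the set as its nearest gene, an intergenic region of the first CLIP library on the plus strand at chr6:128313401-128313600, 12687 bases from the start of Tead4, with a deposited score of 13.5. The second CLIP library and both TAP libraries had none. The ChIP-seq regions carry no gene names and were not used here.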

How the data were processed

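RNA-seq values were deposited as FPKM in 8 tables, which the authors made separately, and 37 libraries were used. The submitters' processing notes name TopHat2 2.0.11 and CASAVA, and both mm9 and mm10 without a role, and the RefSeq GRCm38.p6 start sites of 7 of the 9 windows found for the genes lie within 34 bases of those in the tables. The deposited mapped read counts cover 19 libraries, and the depth of the embryo, CX-5461 and knockout-line knockdown libraries is unknown. The CLIP and TAP regions carry the authors' own scores, used only to describe them, and the ChIP-seq files were not used here.

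Groups were taken from the labels. FPKM was tested as log2(FPKM + 1) with limma 3.58.1 in R 4.3.3, with a mean-variance trend, on genes at 1 FPKM or more in as many libraries as the smaller group holds. P-values were adjusted over all genes tested by Benjamini-Hochberg, at a threshold of 0.05, and both directions were tested. The fit was checked on simulated data. The 3 knockdown contrasts were not tested, since they chose the genes. An exact permutation test cannot reach that threshold with 2 or 3 libraries a group. Where a symbol was repeated, the row with the highest mean was taken.

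The 10 genes and the 10 gene lists were chosen with earlier results of these data known. From each list the 2 called genes with the largest change were eligible to be named in a comparison, and the 5 genes most like Cyr61 were named by Pearson's r among genes with a mean of at least 5 FPKM in some group. Alternatives were a pseudocount of 0.1, a minimum of 5 FPKM, no filter, rescaling between libraries by median ratios, no variance trend, summed repeated symbols, a replicate block, and leaving out each library. The labels do not say that replicate numbers mark shared cultures, so the main fit of CX-5461 and embryo libraries used no pairs.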

Additional observations from a re-analysis of the deposited data

Results flagged for a closer look

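The change with ActD at 10 ng/ml differed between ESCs and p53 KO ESCs by the test of the difference itself for 6 of the 10 genes. The difference in log2 change, ESCs minus p53 KO ESCs, was 3.86 for Cyr61, 1.83 for Amotl1, 1.27 for Ctgf, 0.82 for Tead1, 0.78 for Wwtr1 and -0.91 for Tead4. Over all 12198 genes tested 12.5% were called higher and 23.3% lower. The calls of Tead1, Wwtr1 and Tead4 depended on which library was left out, and those of Cyr61, Amotl1 and Ctgf did not.

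For 3 genes all libraries of the loss of Ddx18 moved one way in one setting and the opposite way in another, and these differences were not tested. The log2 change of Cyr61 was 3.46 with knockdown in ESCs, 2.78 in EZH2 KO and 1.14 in p53 KO ESCs, against -1.52 in the knockout embryos. That of Amotl2 was 1.50, 0.98 and 0.42 in the same knockdowns, against -1.17 in the embryos. Neither embryo change was called (adjusted p = 0.0678 and 0.133, limma), and the median of all genes there was -0.31. Both groups were apart, with the knockout lower, for 42.4% of all genes in the embryos. In the knockdowns 56.3%, 36.7% and 49.4% of genes were apart higher, and 20.7% lower in EZH2 KO. The knockdowns chose the genes, so nothing is read from this count. Yap1 had a log2 change of -0.23 with knockdown in EZH2 KO ESCs and 0.50 in p53 KO ESCs, or -0.35 and 0.10 after rescaling between libraries, which removes a shift of the median of all genes of 0.34 in the latter.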

How the results depend on the processing

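Of 816 values of the tested genes under the alternatives, 796 kept their direction and 20 reversed, none of them a call. A call was lost in 64 and gained in 10, and 57 of the 64 came from leaving out a library. The number of the 10 genes called, with 1 library left out in turn, stayed at 7 to 7 with CX-5461 and ran from 7 to 8 and from 5 to 7 with ActD at 5 and 10 ng/ml. It ran from 0 to 3 between the doses, from 0 to 0 with ActD in p53 KO ESCs, from 1 to 3 with CHX, from 0 to 0 in the embryos and from 3 to 8 for the difference between genotypes, where the lowest came without 1 treated library of either genotype. Fewer libraries leave fewer degrees of freedom. With a pseudocount of 0.1 the count between the doses was 0. Without one ActD control the calls over all genes between the doses reached 2222, and without another library they were as few as 17.

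Rescaling by median ratios reversed Tead4 with CX-5461 (-0.017), Tead1 with ActD at 5 ng/ml (-0.0074), Amotl2 and Wwtr1 with CHX (-0.12 and -0.10) and Yap1 in the embryos (0.20). With a library left out, the log2 change spanned 0 for Tead4 with CX-5461 (-0.041 to 0.087), Lats2 between the doses (-0.28 to 0.017), Amotl1 with ActD in p53 KO ESCs (-0.14 to 0.083), and Amotl2 (-0.033 to 0.10) and Wwtr1 (-0.15 to 0.23) with CHX. In the embryos it did so for Yap1 (-0.14 to 0.0066), Wwtr1 (-0.28 to 0.29), Tead4 (-0.50 to 0.56) and Lats2 (-0.20 to 0.28). The cause was not tested.

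With the replicate block the number called stayed at 7 with CX-5461 and 0 in the embryos, where calls over all genes went from 55 higher and 395 lower to 106 and 619. Same-numbered libraries correlated at 0.019 to 0.045 in their deviations. No paired analysis was possible for ActD and CHX because their columns carry no replicate numbers. At 2 libraries a group, low transcripts limit what can be shown.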
